A study of Mus musculus with 8 samples.

Results

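The 9 genes of the DARPP-32 and striatal cyclic AMP pathway described here were chosen by symbol in the array's probe annotation: Ppp1r1b, Ppp1r1a, Adcy5, Gnal, Gng7, Ptpn5, Arpp21, Adora2a and Gpr6. Of these 9 genes, 8 had probes (18 in all) among the 31334 genes tested, and Adora2a was not analysed here. The RNA came from the nucleus accumbens, the ventral part of the striatum, of male mice trained in a short conditioned place preference task, where a place becomes linked to an injection. The cocaine group received 15 mg/kg cocaine on days 2, 3 and 4, and the control group received saline on those days. Each of 4 arrays carried cocaine RNA and saline RNA in the dyes Cy5 and Cy3, and its title names 1 cocaine and 1 saline sample. Cocaine RNA was in Cy5 on 2 arrays (cocaine in Cy5, replicates 1 and 2) and in Cy3 on the other 2 (saline in Cy5, replicates 1 and 2). Each array was read on an Axon and on an Agilent scanner, and the 2 scans were averaged, so n = 4 counts arrays. The design text speaks of 5 measurements, of which 4 were analysed here, and of 4 nuclei per treatment. Whether an array's RNA came from single or pooled animals is not clear from it, so each SE speaks only of these arrays. Each SE is the moderated one of limma. It draws mostly on the spread common to all genes (15.9 prior against 2 residual degrees of freedom in the main fit). A gene's own spread between the arrays can be wider or narrower. The labels give neither strain nor age.

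Medium spiny neurons, the main neurons of the striatum, read dopamine and adenosine through cyclic AMP. Receptors act on the olfactory-type G protein, whose alpha subunit is Gnal and whose gamma subunit is Gng7, and this G protein drives adenylyl cyclase 5 (Adcy5). Cyclic AMP activates protein kinase A, which turns DARPP-32 (Ppp1r1b) into an inhibitor of protein phosphatase 1. These genes are used in studies of striatal neurons both as markers of the cells and as parts of the pathway through which psychostimulants act.

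Of the 5 genes with a start-site window in the RefSeq promoter table, Gpr6 was the one whose window held the full cyclic AMP response element TGACGTCA, so its upstream bases are shown here. The stretch is the 250 bases before the start of Gpr6 on the minus strand, chr10:41072291-41072540 in GRCm38.p6, with the element in capitals.

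Gpr6: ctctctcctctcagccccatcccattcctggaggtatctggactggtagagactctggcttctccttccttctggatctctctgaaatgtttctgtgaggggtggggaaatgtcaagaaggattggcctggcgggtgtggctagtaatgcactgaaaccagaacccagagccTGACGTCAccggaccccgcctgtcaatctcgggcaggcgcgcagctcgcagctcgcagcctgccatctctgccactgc

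The element began 78 bases before the annotated start. Among 32851 windows of 300 bases (250 before the start and 50 after it), searched on both strands, 1.79% held TGACGTCA and 20.8% held the shorter motif TGACG, which every full element also contains. In the 15 windows of the 5 genes (9 of them of Arpp21), 5 windows held the shorter motif and 1 held the full element. Some windows of Arpp21 overlap. Those at chr9:112217212-112217511 and chr9:112217302-112217601 hold the same copy of the shorter motif, which is thus counted in both. The Adcy5 window and both Ptpn5 windows held neither, which says only that these letters were not in those bases.

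All 8 measured genes had a log2 ratio of cocaine over saline above 0, and none passed the test. The ratios ran from 0.10 for Arpp21 to 0.69 for Ppp1r1b, with a median of 0.41, against a median of 0.03 over all genes, of which 56.6% were above 0. A ratio above 0 was more common among genes with a high Cy5 over Cy3 ratio. In the highest decile by that ratio, which held 6 of the 8 genes, the median was 0.17 and the lower quartile 0.08. By limma with p adjusted over all genes, 0 of the 8 were called, where 0.0255% of all genes were called in either direction. At an unadjusted p below 0.05, 5 of the 8 were higher (Ppp1r1b, Adcy5, Gpr6, Ptpn5 and Gng7), against 2.8% of all genes, and none was lower, against 3.24%. That count rests on single arrays and scans: leaving out saline in Cy5 replicate 1 made it 0, leaving out cocaine in Cy5 replicate 2 made it 2, and the Axon scans alone gave 2. The median of the 8 genes was 0.23 without saline in Cy5 replicate 1. The labels do not state the direction of the ratio, and cocaine over saline is the likely one: the columns had been turned one way, and those with cocaine in Cy5 read as channel 1 over channel 2 have cocaine on top. In whole tissue, more cells of a type and more RNA per cell cannot be told apart. The ratios hold no levels, so the tissue could not be checked against marker levels.

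The dye moved the ratios more than the treatment did. Across all genes the median size of the dye coefficient (Cy5 over Cy3, log2) was 0.749, and that of the cocaine coefficient was 0.133. The dye coefficient passed the limma test in 8 of 8 measured genes, towards Cy5 in each, against 34.5% of all genes. Ratios were centred on the scan's median, and the mean of an array's 2 scans was above 0 for each of them with cocaine in Cy5. It was below 0 for each with saline in Cy5, although some single Axon scans were above 0 there, as for Gpr6 in replicate 1 (0.46). None of the 8 had the same sign in 4 of 4 hybridisations, against 1.84% of all genes. The cocaine coefficient is the mean of the 4 hybridisations, in which the dye effect cancels only as far as it was equal in both orientations. A second set of values, called dye-profile values here, has the trend of each scan along the mean Cy5 over Cy3 ratio of all genes removed by loess.

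**Figure D1:**
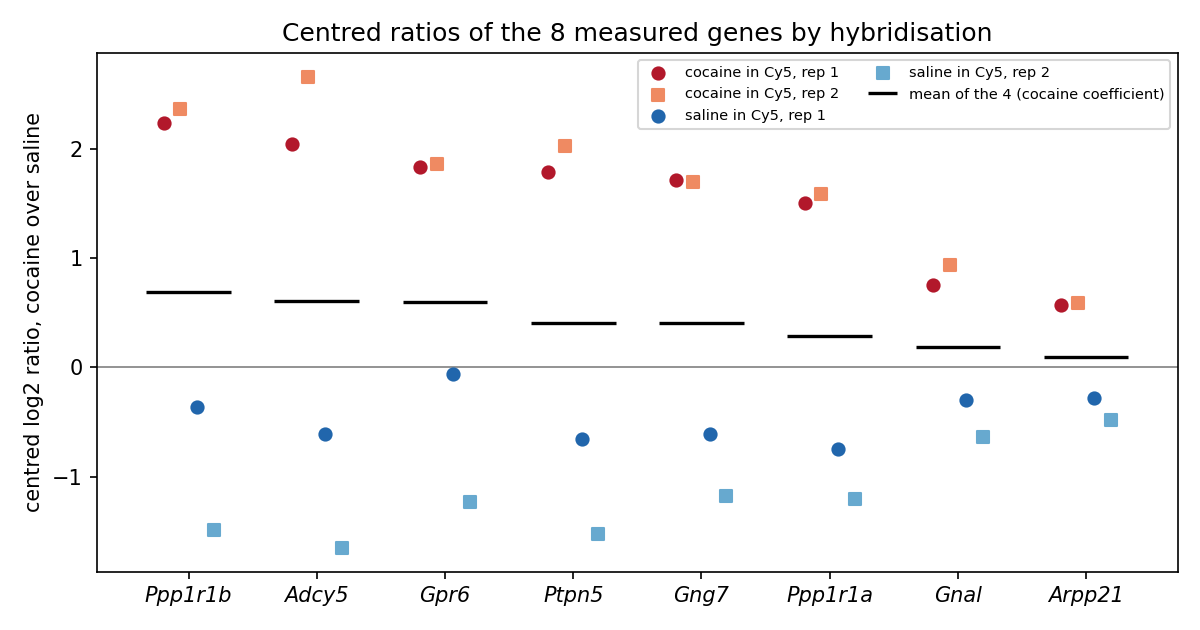
Centred log2 ratio of cocaine over saline (vertical axis) of the 8 measured genes in each of the 4 hybridisations, points coloured by dye orientation, with the mean of the 4 as a bar. Every point with cocaine in Cy5 lies above 0 and every point with saline in Cy5 lies below it, while the means run from 0.10 to 0.69.

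**Figure D2:**
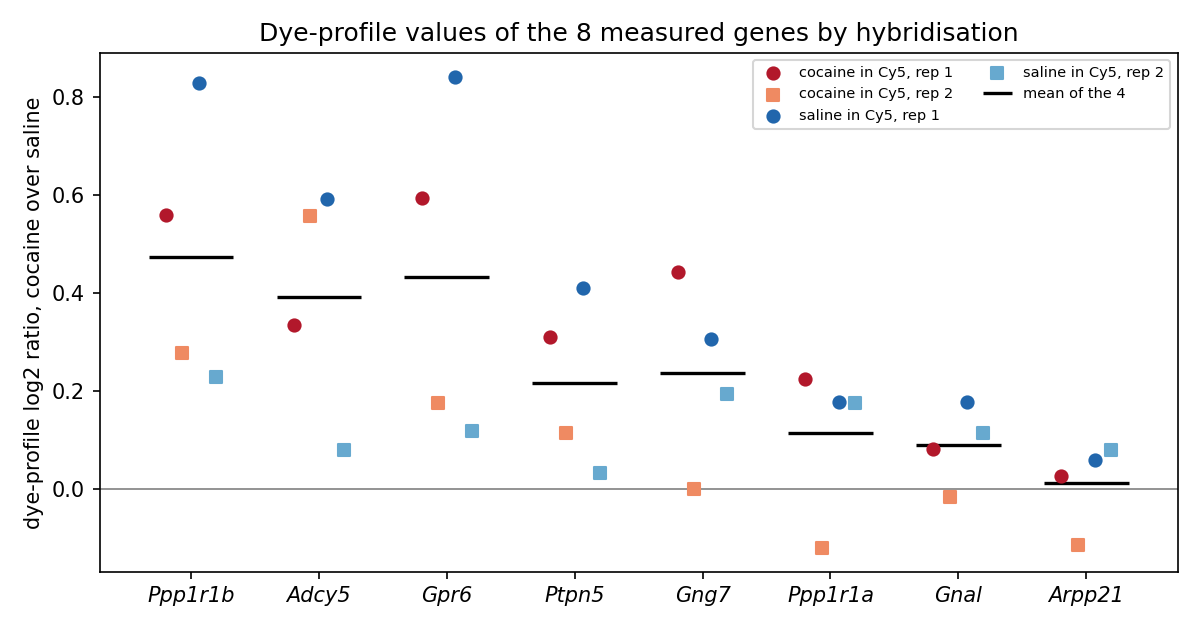
Dye-profile log2 ratio of cocaine over saline (vertical axis) of the same 8 genes in the 4 hybridisations, with the mean of the 4 as a bar. The 2 orientations overlap here, and Ppp1r1b, Adcy5, Gpr6 and Ptpn5 are above 0 in 4 of 4.

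Gpr6 encodes an orphan receptor with high constitutive activity on cyclic AMP, known in striatum from medium spiny neurons of the indirect pathway. Its centred log2 ratios were 1.83 and 1.86 with cocaine in Cy5, and -0.06 and -1.23 with saline in Cy5. The first pair of values was close, while the second pair lay far apart, and the orientations did not overlap. The cocaine coefficient was 0.60 ± 0.20 (SE, n = 4; limma adjusted p = 0.670), with a 95% interval of 0.19 to 1.01, and 0.31 ± 0.25 without saline in Cy5 replicate 1. The dye-profile values were 0.59 and 0.18 with cocaine in Cy5 and 0.84 and 0.12 with saline in Cy5, all above 0. Replicate 1 of each orientation was high and replicate 2 low, and their mean was 0.43 ± 0.16 (SE, n = 4; limma adjusted p = 0.670).

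Gnal, the stimulatory alpha subunit that couples dopamine and adenosine receptors to cyclase in striatum, had 5 probes. Its gene-level centred log2 ratios were 0.75 and 0.94 with cocaine in Cy5, and -0.30 and -0.63 with saline in Cy5. Those with cocaine in Cy5 were nearer to 0 than in the other genes except Arpp21. This gave a cocaine coefficient of 0.19 ± 0.17 (SE, n = 4; limma adjusted p = 0.906), or 0.11 with saline in Cy5 replicate 1 left out. By dye-profile values it was 0.09 ± 0.09 (SE, n = 4), with 3 of 4 hybridisations above 0. Its probes did not move as one: probes 1, 2 and 3 had cocaine coefficients of 0.38, 0.29 and 0.28 and dye coefficients from 1.01 to 1.25. Probe 5 had a cocaine coefficient of 0.10, and probe 4 one of -0.11 with a dye coefficient of -0.69, so the gene-level value averages probes of opposite dye behaviour.

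Gng7, the gamma subunit that partners Gnal in the striatal G protein, had 2 probes. The centred log2 ratios were 1.72 and 1.70 with cocaine in Cy5, and -0.61 and -1.18 with saline in Cy5. They were alike within the first orientation and less so within the second. The cocaine coefficient was 0.41 ± 0.18 (SE, n = 4; limma adjusted p = 0.793), with a 95% interval of 0.04 to 0.78, and 0.27 without saline in Cy5 replicate 1. The dye-profile mean was 0.24 ± 0.12 (SE, n = 4), with values from -0.0005 in cocaine in Cy5 replicate 2 to 0.44 in replicate 1. Probe 1 stood at 0.59 and probe 2 at 0.22, although the annotation gives both the same transcript. In dye-profile values probe 1 was 0.44 and probe 2 was -0.44 in cocaine in Cy5 replicate 2, and both were above 0 in replicate 1.

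Adcy5, the main adenylyl cyclase of striatal neurons, had 2 probes that gave close values. Its centred log2 ratios were 2.04 and 2.66 with cocaine in Cy5, and -0.61 and -1.66 with saline in Cy5. The pair with cocaine in Cy5 lay further apart than that of any other measured gene of the set, and the pair with saline in Cy5 also differed. The cocaine coefficient was 0.61 ± 0.20 (SE, n = 4; limma adjusted p = 0.652), a 1.53-fold ratio with a 95% interval of 1.14 to 2.03. It was 0.35 ± 0.25 when saline in Cy5 replicate 1 was left out. Probe 1 gave 0.65 and probe 2 gave 0.56. The dye-profile values were 0.33 and 0.56 with cocaine in Cy5 and 0.59 and 0.08 with saline in Cy5, with a mean of 0.39 ± 0.13 (SE, n = 4). Here saline in Cy5 replicate 2 was low and the others were higher.

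Ppp1r1b, which encodes DARPP-32, had the highest ratio of the set, from 1 probe. After centring, the Axon log2 ratios were 1.49 and 1.78 with cocaine in Cy5, and 0.21 and -0.74 with saline in Cy5. The Agilent log2 ratios of the same arrays were 2.995 and 2.94 with cocaine in Cy5, and -0.94 and -2.24 with saline in Cy5. The Agilent scans thus gave wider dye differences than the Axon scans, and the order of the 2 saline in Cy5 arrays was the same on both. The hybridisation means were 2.24 and 2.36 with cocaine in Cy5, and -0.36 and -1.49 with saline in Cy5.

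The cocaine coefficient of Ppp1r1b was 0.69 ± 0.19 (SE, n = 4; limma adjusted p = 0.473; unadjusted 0.00236). This is a 1.61-fold ratio with a 95% interval of 1.21 to 2.14. Without saline in Cy5 replicate 1 the ratio was 0.41. With all 4 arrays it ranked 39 from the highest of 31334 genes by log2 ratio and 156 by p. In dye-profile values these ranks were 229 and 611. If the ratios were saline over cocaine, both ranks by log2 ratio would count from the lowest. The dye-profile values were 0.56 and 0.28 with cocaine in Cy5, and 0.83 and 0.23 with saline in Cy5. All were above 0, and their mean was 0.47 ± 0.14 (SE, n = 4; limma adjusted p = 0.670). Saline in Cy5 replicate 1 gave the highest value, as it did for Gpr6, Adcy5 and Ptpn5.

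Ppp1r1a, which encodes inhibitor-1, the relative of DARPP-32 that protein kinase A also turns into an inhibitor of phosphatase 1, stood lower. Its centred log2 ratios were 1.51 and 1.59 with cocaine in Cy5, and -0.75 and -1.21 with saline in Cy5. Its cocaine coefficient was 0.29 ± 0.17 (SE, n = 4; limma adjusted p = 0.860), with probes at 0.34 and 0.23, and 0.17 without saline in Cy5 replicate 1. The dye-profile values were 0.22 and -0.12 with cocaine in Cy5 and 0.18 and 0.17 with saline in Cy5, so cocaine in Cy5 replicate 2 stood apart below 0. The 95% intervals of Ppp1r1b and Ppp1r1a overlapped, and the difference between them was not tested.

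Ptpn5 encodes STEP, a striatum-enriched tyrosine phosphatase that acts on MAP kinases and glutamate receptors. Its centred log2 ratios were 1.79 and 2.03 with cocaine in Cy5, and -0.66 and -1.53 with saline in Cy5. The cocaine coefficient was 0.41 ± 0.19 (SE, n = 4; limma adjusted p = 0.805), a 1.33-fold ratio. Leaving out saline in Cy5 replicate 1 gave 0.19 ± 0.25, and leaving out saline in Cy5 replicate 2 gave 0.63 ± 0.25. The dye-profile values were 0.31 and 0.11 with cocaine in Cy5 and 0.41 and 0.03 with saline in Cy5, all above 0, replicate 2 of each orientation being close to 0. Their mean was 0.22 ± 0.11 (SE, n = 4; limma adjusted p = 0.687).

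Arpp21 encodes a cyclic AMP-regulated phosphoprotein of striatal neurons and stood lowest. The centred log2 ratios were 0.57 and 0.59 with cocaine in Cy5, and -0.28 and -0.48 with saline in Cy5. Its cocaine coefficient was 0.10 ± 0.17 (SE, n = 4; limma adjusted p = 0.949), and 0.01 ± 0.09 (SE, n = 4) by dye-profile values. Without saline in Cy5 replicate 1 the centred value was 0.050. As in Gnal, the gene-level value joins unlike probes: the cocaine coefficients of probes 1 to 4 were 0.36, -0.09, 0.09 and 0.04, and their dye coefficients were 1.52, 1.27, 0.24 and -1.12. Probes 1 and 2, which had like dye coefficients, lay on opposite sides of 0.

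**Figure D3:**
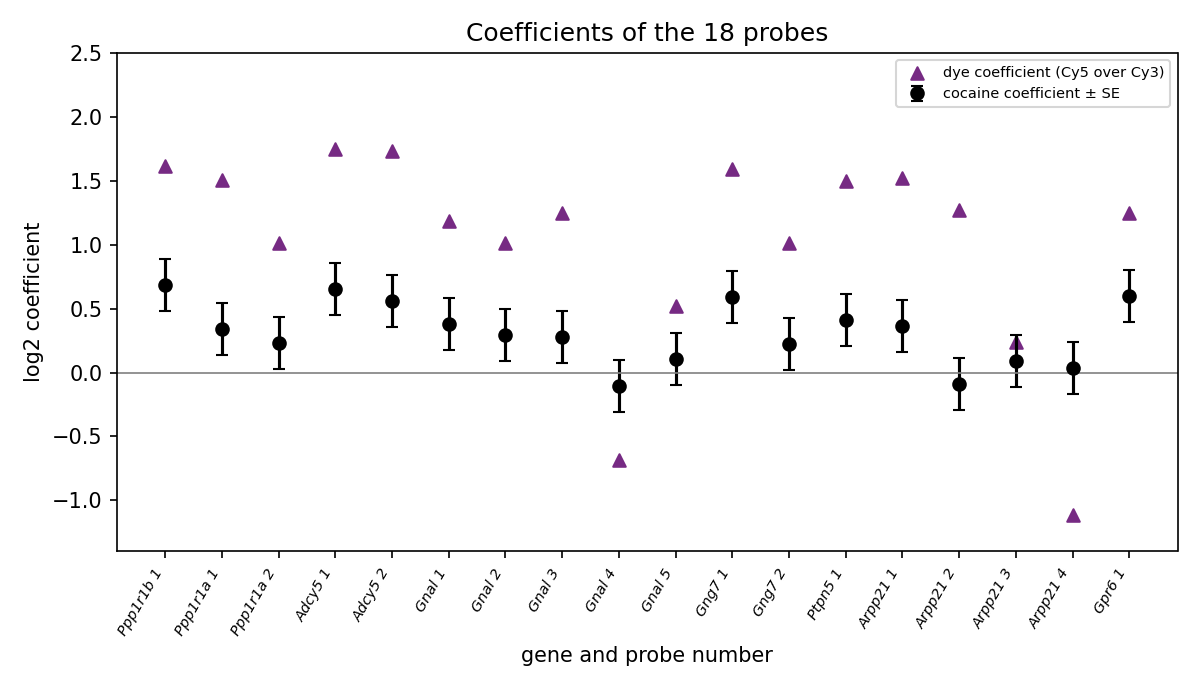
Cocaine coefficient (circles, with SE) and dye coefficient (triangles) on the log2 scale for each of the 18 probes, fitted over all rows one by one. The SE was 0.2035 for every probe, as this fit took the spread in common over all rows. The 4 probes of Arpp21 and the 5 of Gnal span dye coefficients on both sides of 0, while the 2 probes of Adcy5 lie close together at 0.65 and 0.56.

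From the highest, the order of the cocaine coefficients was Ppp1r1b, Adcy5, Gpr6, Ptpn5, Gng7, Ppp1r1a, Gnal and Arpp21. Each step between neighbours in that order was smaller than the SE of the higher gene. The 95% intervals of Ppp1r1b (0.28 to 1.10) and Arpp21 (-0.26 to 0.46) overlapped too. By dye-profile values, the median of the 8 genes was 0.23 and all 8 were above 0, against 49.8% of all genes. Of the 8, 4 were above 0 in 4 of 4 hybridisations, against 9.57% of all genes, and 3 were higher at an unadjusted p below 0.05, against 3.45%. No gene of the array passed the adjusted threshold in those values by limma (0%), and 7.25% had an unadjusted p below 0.05.

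**Figure D4:**
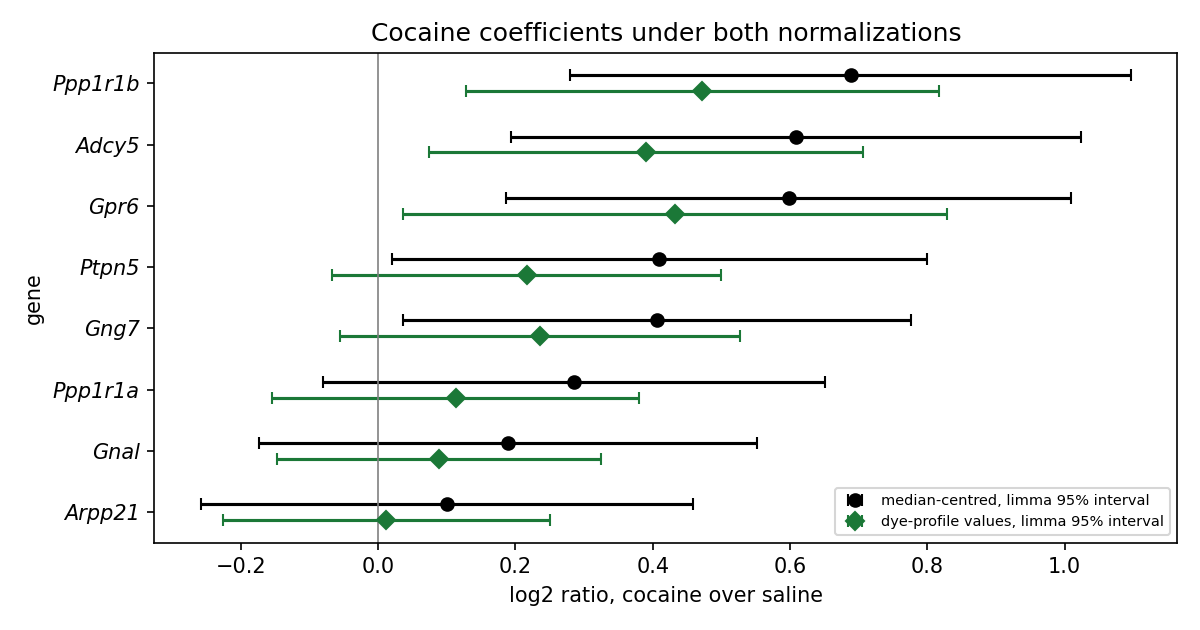
Cocaine coefficient on the log2 scale (horizontal axis) of the 8 genes with limma 95% intervals, from centred values (circles) and from dye-profile values (diamonds). Every dye-profile estimate is nearer to 0 than the centred one, and 3 of the 8 dye-profile intervals lie above 0.

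The cocaine coefficient moved with the dye profile over the whole array. Among deciles of genes by Cy5 over Cy3 ratio, its median was 0.17 in the highest and -0.05 in the lowest. Of the 8 genes, 6 fell in the highest decile, Gnal in decile 8 and Arpp21 in decile 7. Within its own decile, Ppp1r1b was exceeded by 0.160% of 3134 genes, Adcy5 by 0.479% and Gpr6 by 0.638%. Ptpn5 was exceeded by 6.06%, Gng7 by 6.19%, Ppp1r1a by 23.0%, Gnal by 28.3% and Arpp21 by 38.2%. Read the other way round, with saline over cocaine, these shares would be of genes further below, in deciles by Cy3 over Cy5. In the likely direction Ppp1r1b, Adcy5 and Gpr6 lay near the top of their decile, and Ppp1r1a, Gnal and Arpp21 lay nearer to the middle of theirs. Genes of a decile still differ in dye ratio: the highest had a median of 1.94, with Ppp1r1b at 2.28, Adcy5 at 2.30 and Gpr6 at 1.85. Over all genes in dye-profile values, 0.728% lay above Ppp1r1b, 1.70% above Adcy5 and 1.05% above Gpr6.

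**Figure D5:**
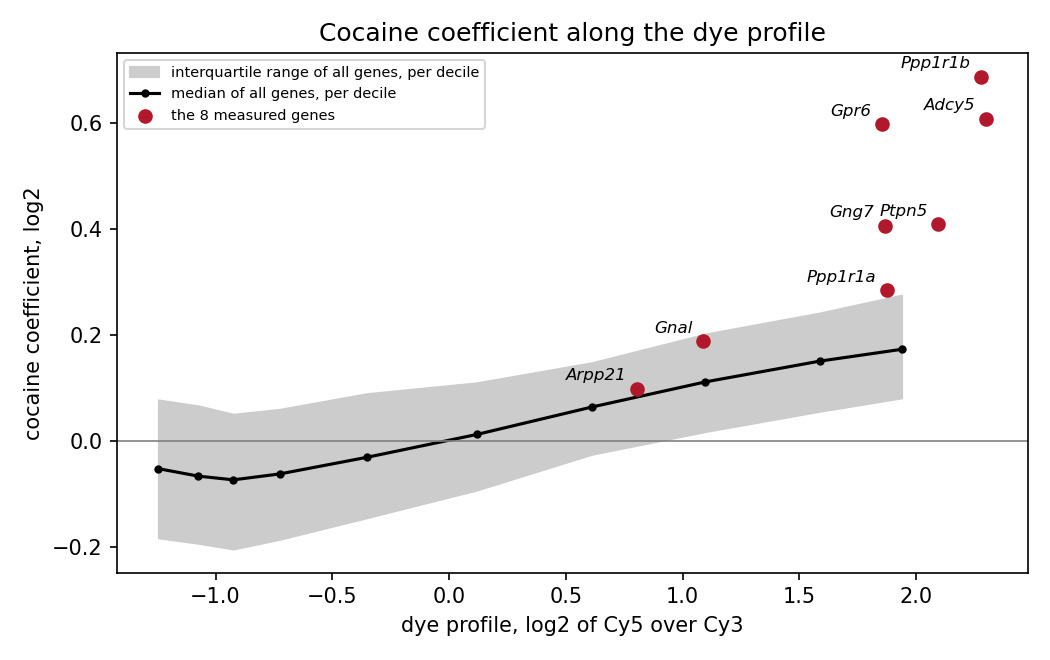
Cocaine coefficient (vertical axis, log2) against the dye profile (horizontal axis, log2 of Cy5 over Cy3), with the median (line) and interquartile range (band) of all genes by decile and the 8 measured genes as points. The median climbs from -0.05 in the lowest decile to 0.17 in the highest. Of the 8 genes, 6 lie above the upper quartile of their own decile, Ppp1r1b, Adcy5 and Gpr6 by the most. The band ends at the median of the highest decile (1.94), and Ppp1r1b, Adcy5 and Ptpn5 lie beyond that end.

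The genes whose 8 centred scan values lay nearest to those of Ppp1r1b, by root mean square difference in log2 over 19086 genes with a symbol, were Hap1 (0.152), Sumo3 (0.163), D430019H16Rik (0.246), Necab2 (0.253) and Itm2c (0.254). Their cocaine coefficients were 0.76, 0.58, 0.50, 0.56 and 0.59, and their dye coefficients lay between 1.48 and 1.80. Of the pathway genes, Adcy5 ranked 8 in this order, Ptpn5 42, Gpr6 95, Gng7 325 and Ppp1r1a 788. Gnal ranked 5622 and Arpp21 7094. This likeness takes in the dye orientation of the scans, by which the values of these genes differed more than by treatment.

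Other genes of the pathway had no called member in either direction (0.00319% of all genes were called higher and 0.0223% lower). Beside the counts above 0 in these lists, 56.6% of all genes were above 0 in centred and 49.8% in dye-profile values. Upstream, of 25 other G protein genes (subunits and a chaperone of alpha subunits), 16 were above 0 with a median log2 ratio of 0.083. At an unadjusted p below 0.05, 1 was higher and 3 lower, against 2.8% and 3.24% of all genes. The majority turned in dye-profile values, with 9 above and 16 below 0 and a median of -0.064. Left out one by one, cocaine in Cy5 replicates 1 and 2 gave centred medians of 0.23 and -0.066, and saline in Cy5 replicates 1 and 2 gave -0.017 and 0.17. Gnb3, a beta subunit known from cone photoreceptors, stood at 0.58 ± 0.18, and Gng2, a gamma subunit, at -0.46 ± 0.19 (SE, n = 4). Of 7 measured adenosine genes and receptors with constitutive cyclic AMP activity, 5 were above 0, with a median of 0.38, and 3 were higher and 1 lower at an unadjusted p below 0.05. In dye-profile values 5 were above 0, with a median of 0.24, and the centred median was 0.16 without saline in Cy5 replicate 1 and 0.18 with the Agilent scans alone. Nt5e, the ectoenzyme that makes adenosine from AMP, stood at 0.40 ± 0.17, and the adenosine transporter Slc29a1 at 0.40 ± 0.17 (SE, n = 4).

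The 9 other adenylyl cyclases did not share the sign of Adcy5 as a group: 4 were above 0, and their median was -0.02. At an unadjusted p below 0.05, 1 was higher and 2 lower, against 2.8% and 3.24% of all genes. In dye-profile values 2 were above and 7 below 0, with a median of -0.15. The centred median was 0.078 and -0.14 without cocaine in Cy5 replicates 1 and 2, and -0.036 and -0.025 without saline in Cy5 replicates 1 and 2. Adcy8, a calcium-stimulated cyclase, stood at -0.50 ± 0.17, and Adcy10, the soluble cyclase, at -0.47 ± 0.17 (SE, n = 4). Among 9 phosphodiesterases of the striatum, which break cyclic nucleotides down, 5 were above 0 with a median of 0.11 and 1 was higher at an unadjusted p below 0.05. The same number were above 0 in dye-profile values, with a median of 0.053. The centred median was 0.018 and 0.23 without saline in Cy5 replicates 1 and 2, and 0.021 with the Axon scans alone. Pde10a, the phosphodiesterase most typical of medium spiny neurons, stood at 0.39 ± 0.18, and Pde2a at 0.36 ± 0.18 (SE, n = 4).

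Downstream, 11 of 14 genes of protein kinase A and its anchors were above 0, with a median of 0.18. At an unadjusted p below 0.05, 1 gene was higher, against 2.8% of all genes. In dye-profile values 8 were above and 6 below 0, with a median of 0.046. The centred median was 0.097 without cocaine in Cy5 replicate 2 and 0.052 with saline in Cy5 replicate 1 left out. Akap5, which anchors the kinase at synapses, stood at 0.57 ± 0.19, and Akap1, a mitochondrial anchor, at 0.34 ± 0.17 (SE, n = 4). Of 13 measured phosphatases and kinases that act on DARPP-32 or, as the catalytic subunits of phosphatase 1, are inhibited by it, 12 were above 0. Their median was 0.14, and none had an unadjusted p below 0.05 by limma. Dye-profile values split them into 7 above and 6 below 0, with a median of 0.033. The catalytic subunits of phosphatase 1 were among those below 0. Leaving out cocaine in Cy5 replicate 1 or 2 gave centred medians of 0.21 and 0.081, and leaving out saline in Cy5 replicate 1 or 2 gave 0.065 and 0.24. Ppp3ca, the calcineurin subunit, stood at 0.36 ± 0.17, and Cdk5r1, the activator of Cdk5, at 0.34 ± 0.18 (SE, n = 4).

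Of 11 other phosphatase 1 regulators and ARPP relatives, 8 were above 0 with a median of 0.13. At an unadjusted p below 0.05, 2 were higher and 1 lower, against 2.8% and 3.24% of all genes. In dye-profile values 5 were above and 6 below 0, with a median of -0.015. Centred medians were 0.19 and 0.035 without cocaine in Cy5 replicates 1 and 2, and 0.025 and 0.23 without saline in Cy5 replicates 1 and 2. Ppp1r14a, an inhibitor known from smooth muscle, stood at -0.55 ± 0.19, and Ppp1r2, inhibitor-2, at 0.42 ± 0.18 (SE, n = 4). All 7 measured MAP kinase tyrosine phosphatases and STEP substrates were above 0, with a median of 0.10, and 1 was higher at an unadjusted p below 0.05. Of these, 5 were above 0 in dye-profile values, with a median of 0.017. The centred median was 0.20 and 0.049 without cocaine in Cy5 replicates 1 and 2, and 0.15 without saline in Cy5 replicate 2. Ptk2b, a tyrosine kinase that STEP acts on, stood at 0.38 ± 0.18, and Gria2, a glutamate receptor subunit, at 0.28 ± 0.18 (SE, n = 4).

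Markers of the cells that express these genes lay mostly on the same side of 0 in centred values. Of 8 direct pathway markers 8 were above 0 (median 0.15), of 5 measured indirect pathway markers 5 (median 0.21), and of 16 measured markers shared by medium spiny neurons 15 (median 0.22). None of them was called, against 0.0255% of all genes. Over all genes, 56.6% were above 0 in centred and 49.8% in dye-profile values. The median dye coefficients of the direct, indirect and shared markers were 0.31, -0.21 and 1.39. In the highest decile of all genes by dye profile, the lower quartile of the cocaine coefficient was 0.08. In dye-profile values all 8 and all 5 pathway markers were above 0 (medians 0.090 and 0.18), while the shared markers split into 11 above and 5 below (median 0.073). The centred median of the shared markers was 0.13 without cocaine in Cy5 replicate 2, and 0.094 and 0.32 without saline in Cy5 replicates 1 and 2. That of the indirect pathway markers was 0.46 without saline in Cy5 replicate 2, 0.067 with the Agilent scans and 0.36 with the Axon scans. With the Axon scans, and with the Agilent scans, the direct pathway median was 0.25 and 0.097. The opioid precursor genes Pdyn and Penk stood at 0.50 ± 0.17 and 0.36 ± 0.18, the transcription factors Isl1 and Sp9 at 0.44 ± 0.17 and 0.33 ± 0.18, and Actn2, an actin crosslinker, at 0.41 ± 0.19 (SE, n = 4).

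Markers of cortical projection neurons lay on the other side. Of 13 measured, 11 were below 0 with a median of -0.26, where 56.6% of all genes were above 0. At an unadjusted p below 0.05, 6 were lower and 1 higher, against 3.24% and 2.8% of all genes. By limma with adjusted p, 3 were called lower, against 0.0223% of all genes. These were Tbr1 (log2 ratio -1.45 ± 0.18, adjusted p = 0.00602), Nrn1 (-1.71 ± 0.24, adjusted p = 0.0143) and Neurod6 (-1.13 ± 0.19, adjusted p = 0.0375), with n = 4. The median was -0.64 without cocaine in Cy5 replicate 1, -0.42 and -0.39 when saline in Cy5 replicates 1 and 2 were left out in turn, and -0.41 with the Axon scans alone. None of the 3 was called in dye-profile values, where Tbr1 stood at -1.44 ± 0.13 (SE, n = 4; limma adjusted p = 0.591). In dye-profile values the median of the 13 was -0.31 and -0.57 with cocaine in Cy5, and -0.46 and -0.21 with saline in Cy5, while that of the 8 pathway genes was 0.32 and 0.06, and 0.36 and 0.12. Their part in the pathway genes' ratios was not tested.

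The markers of other cells held no called gene, against 0.0255% of all genes. The median was -0.06 for 12 oligodendrocyte markers (Aspa -0.39, Ermn -0.28), 0.06 for 9 astrocyte markers (Aldh1l1 0.33, Aldoc 0.23) and 0.02 for 8 microglia markers (Trem2 0.23, Tmem119 0.10). It was -0.02 for 9 endothelial and mural markers (Kdr -0.30, Esam 0.18) and -0.03 for 6 choroid plexus and ependymal markers (Clic6 0.37, Folr1 -0.25). It was 0.06 for 10 markers of septal, pallidal and diencephalic neurons (Dlk1 0.67, Avp -0.44). The genes in brackets were those of smallest p. Above 0 were 4 of the oligodendrocyte, 6 of the astrocyte and 5 of the microglia markers. So were 4 endothelial and mural, 3 choroid plexus and ependymal, and 6 septal, pallidal and diencephalic markers. In dye-profile values these counts were 2, 4, 1, 2, 3 and 5. Over all genes, 56.6% were above 0 in centred and 49.8% in dye-profile values. In dye-profile values the oligodendrocyte median was -0.24 and ran from -0.50 to 0.12 over the hybridisations. Leaving out cocaine in Cy5 replicate 1 turned its centred median to 0.12. In dye-profile values the astrocyte, microglia, and septal, pallidal and diencephalic medians were -0.032, -0.091 and -0.010, the endothelial and mural one was -0.054, and the choroid plexus and ependymal one was 0.018. Its part in the pathway genes' ratios was not tested.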

How the data were processed

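The authors deposited log2 ratios between the channels of Agilent whole mouse genome arrays, 44290 rows in each of 8 scans. Their log base was inferred from the values, and no source used here gives the image analysis, background correction or normalization. Per the labels, 75 ng of RNA was amplified and labelled. Between 4 and 37 stop values a scan, beyond 16 in size, were treated as missing. Scan medians lay between -0.885 and -0.617 with cocaine in Cy5 and between 0.637 and 0.823 with saline in Cy5. The Axon minus Agilent difference correlated across rows at 0.516 and 0.515 for arrays of like orientation and at -0.542 to -0.493 for opposite ones, so the columns had been turned to one treatment direction.

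The annotation's probe order is not the table's row order. A staggered grid with both axes reversed gave r = 0.474 over 8415 pairs of probes of one accession, against -0.003 for the listed order, and all gene names depend on it. By this grid, 32042 rows had 1 symbol, 47 several (not named) and 12201 none; 31906 matched the RefSeq gene table by identifier.

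Scans were centred on their medians, probes averaged per symbol (rows with none kept singly) and the 2 scans of an array averaged. limma 3.58.1 (R 4.3.3) fitted cocaine and dye terms (2 residual and 15.9 prior degrees of freedom), adjusted by Benjamini-Hochberg over 31334 genes at 0.05. Dye-profile values came from loess (span 0.3, 4 iterations) of each centred scan along the balanced Cy5 over Cy3 mean of the Agilent scans. The fit was tested on simulated data. Probe-level coefficients come from the same model over all rows. The number of arrays limits the precision. Genes named were all 9 chosen, the 2 of smallest p in each other list (Pde10a counts in both its lists), and the 5 nearest to Ppp1r1b. Neurod6 was named beyond this rule, after its value was seen, as the third called cortical marker. The genes and lists were chosen with earlier results of these data known. Promoter bases are from RefSeq, in GRCm38.p6; the files name no build.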

Additional observations from a re-analysis of the deposited data

Results flagged for a closer look

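The dye-profile value of Ppp1r1a in cocaine in Cy5 replicate 2 was -0.12, apart from the other three hybridisations, which lay between 0.17 and 0.22. It was the only 1 of the 48 genes examined, each with 4 dye-profile values, with a sample beyond Dixon's critical gap, and chance alone gives about 1 in 20.

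The centred ratios of all 8 measured genes differed between the dye orientations, by limma with p adjusted over all genes. The dye coefficient (Cy5 over Cy3, log2) was 1.61 for Ppp1r1b, 1.26 for Ppp1r1a and 1.74 for Adcy5. It was 0.66 for Gnal, 1.30 for Gng7 and 1.501 for Ptpn5. Arpp21 had 0.48 and Gpr6 1.25.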

How the results depend on the processing

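Under every alternative run, no measured gene of the pathway passed an adjusted p below 0.05. The closest was Ppp1r1b without saline in Cy5 replicate 2, at 0.97 ± 0.25 (limma adjusted p = 0.0508). Leaving out saline in Cy5 replicate 1 instead gave 0.41. All 8 ratios were above 0 in every gene-level setting except dye-profile values without cocaine in Cy5 replicate 1, where 7 were and Arpp21 stood at -0.023. Single probes below 0 were Gnal probe 4 (-0.11) and Arpp21 probe 2 (-0.091). The median of the 8 was 0.41, 0.23 by dye-profile values, 0.23 to 0.59 with 1 array left out, and 0.15 to 0.30 with 1 left out of the dye-profile values (0.16 without saline in Cy5 replicate 1). The lowest and highest of the centred range were without saline in Cy5 replicates 1 and 2. The count of 5 genes higher at an unadjusted p below 0.05 was 6 with Agilent scans and 2 with Axon scans. It was 3 by dye-profile values and 0 without a dye coefficient. It was 4 and 2 without cocaine in Cy5 replicate 1 and 2, and 0 and 5 without saline in Cy5 replicate 1 and 2. Dye-profile values gave 1 and 3, and 0 and 3, in the same order.

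Of all genes, 8 were called. The count was 20 with Agilent scans, 0 with Axon scans (1585 at an unadjusted p below 0.05), 97 with no centring, 0 by dye-profile values (2271 unadjusted) and 0 with no dye coefficient (24 unadjusted). It was 4 with stop values kept, 30 with the median over probes, 120 for single probes, and 66 to 288 with 1 array left out, where the lone array of an orientation is assumed to vary like the rest. With 1 left out of the dye-profile values it was 0 in each case (1754 to 2491 unadjusted). The cause of these differences was not tested. The dye-profile fits with an array left out and the counts of pathway genes were added after seeing the data. Each array already sets cocaine RNA against saline RNA, so the ratios are paired within an array. Arrays were not paired with each other, because replicate numbers follow accession order. The ratios hold no signal over background, so what dim probes limit is not known here.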

Other observations

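Many deposited ratios lay at the log2 of a ratio of 2 whole numbers no greater than 20, which 36.9% of all values did. By decile of the dye profile the share was 51.8% in the lowest and 6.70% in the highest, where 6 of the 8 measured genes lie. Gnal probes 4 and 5 and Arpp21 probe 4 had such values in 4 of 8 scans each, while Ptpn5, Gng7 probe 1, Adcy5 probe 2 and Arpp21 probes 1 and 2 had them in 0 of 8. Gpr6 had them in 3 of 8 and Ppp1r1b in 1 of 8. Gnal probe 4 and Arpp21 probe 4 disagreed most with their gene's other probes in dye coefficient, while Gnal probe 5, at 0.52, had the sign of most. Over all rows, 57.0% had such values in at least 3 of 8 scans, so 4 of 8 was not unusual. What this share reflects was not tested.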
